A study of Oryza sativa with 28 samples.

Results

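The step described here is the passage from the meiosis stage (P3) to the uninucleate microspore stage (P4) in fertile young panicles of Wuxiang S, written WXS(F). Its members are the 3 FP4 and the 3 FP3 RNA-seq libraries, 6 of the 12 RNA-seq libraries and of the 28 samples of all assays in the series, and they were chosen by their labels alone. WXS is an indica rice line whose male fertility is reversible with temperature, and every group carries its tms5 mutation, the lesion of a ribonuclease gene that makes the line sterile in warm conditions. WXS(F) plants were moved to growth chambers at 22 °C with 14 h of light and 10 h of dark when the panicle was about 1 cm long. WXS(S) plants, whose SP4 and SP3 libraries are used below only for comparison, stayed in the field, with the same hours of light and dark, so that temperature and site differed together between the types and cannot be told apart. Each library was made from whole young panicles. Glume, carpel, anther wall and germ cells are therefore mixed in every value, and a smaller number of cells of a type cannot be told apart from less RNA per cell.

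Between both stages the microspore mother cells of the anther finish meiosis and the tetrads release free microspores with 1 nucleus each. Meiosis relies on proteins that pair the homologous chromosomes, assemble the synaptonemal complex between them and repair programmed DNA breaks as crossovers. The tapetum, the innermost anther wall layer, then secretes lipids and phenolics from which the outer pollen wall (exine) and the anther cuticle are built, and it dies on schedule afterwards. Around the anther, the lemma and palea turn green and lay down cell walls, while the carpel forms its ovule.

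Total counts were 43456997, 47999509 and 44812479 in the 3 FP4 libraries, against 50706690, 45060828 and 41977738 in the 3 FP3 libraries. Counts were listed for 34338 to 35760 genes per FP4 library and for 30018 to 31587 genes per FP3 library, whereas genes at 1 FPKM or more numbered 17879 to 18182 in FP4 and 17759 to 17926 in FP3. FPKM is a count scaled to gene length and library size, and served here as the level of a gene. On the first principal component of the log2 CPM (counts scaled to library size), which held 59.9% of the variance, the FP4 libraries lay apart from the FP3 libraries. On the next component, with 11.3%, replicate 3 of FP3 lay apart from replicates 1 and 2. A single gene, LOC_Os03g51380, took 5.25% and 7.16% of all counts in replicates 1 and 2 of FP4 and 0.0014% in replicate 3.

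Of 24926 genes tested, 3204 were higher (12.9%) and 1527 were lower (6.13%) in FP4 than in FP3, 19.0% in all, where a call required a log2 fold change beyond 1 and an adjusted p under 0.05. The p-values came from the quasi-likelihood test of edgeR and were adjusted over all genes tested by the method of Benjamini and Hochberg. The genes that rose outnumbered those that fell by 2.10 to 1. They also moved further, with a median log2 fold change of 1.87 in size for the genes that rose and 1.53 for those that fell. More than 4-fold differences were found for 1453 of the genes that rose and 448 of those that fell. The median over all genes tested was -0.02. In terms of level, the genes that rose made up 14.8% to 16.1% of summed FPKM in the FP4 libraries, LOC_Os03g51380 left aside, against 4.47% to 4.61% in the FP3 libraries. The genes that fell made up 1.67% to 1.80% in FP4 and 5.13% to 5.31% in FP3. All 3 FP4 libraries lay above all 3 FP3 libraries for 31.3% of the genes tested and below them for 30.6%, so that groups without overlap were common (62.0%) and the call rests on the fold and the test together. Calls in both directions were most frequent among low genes, with 20.6% higher and 10.2% lower among 6683 genes under a mean of 1 FPKM. Between 10 and 100 FPKM, 7.96% of 6330 genes were higher and 2.64% lower, but over 100 FPKM the shares were 16.2% and 4.04% of 371 genes. The larger number of genes with any count in FP4 moved with these low-level calls, and its part in them was not tested. Counted over genes with a mean of at least 1 FPKM, 1825 were higher and 843 lower.

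**Figure D1:**
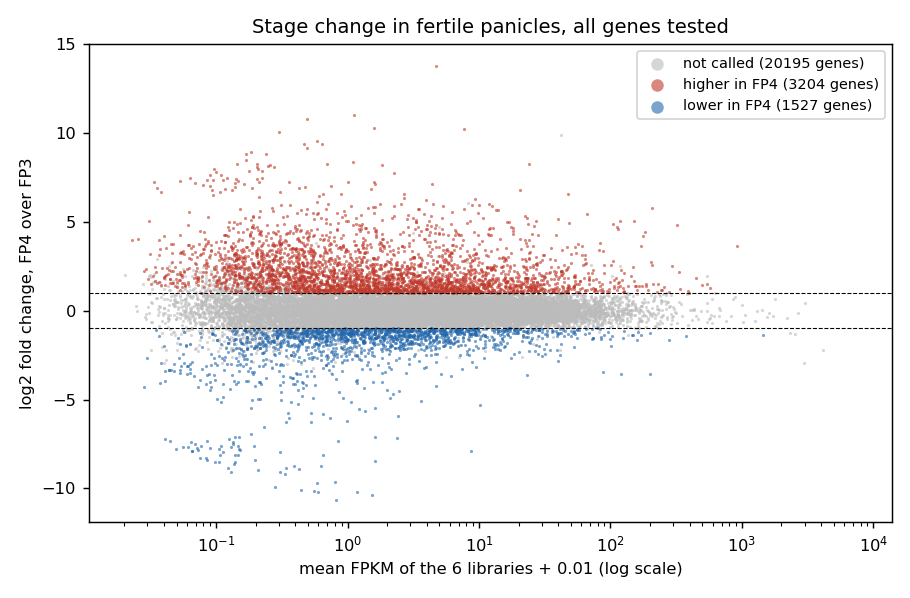
Log2 fold change (FP4 over FP3, vertical axis) of each of the 24926 genes tested against its mean FPKM over the 6 libraries plus 0.01 (horizontal log axis), with called genes coloured and dashed lines at a log2 fold change of 1 and -1. The 3204 genes higher in FP4 lie above the upper line over the whole range of levels, and the 1527 lower genes lie below the other line and are fewer.

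Markers of the tissues a panicle holds moved with the stage. Their calls stand beside 12.9% of all genes higher and 6.13% lower in FP4. Summed FPKM of 6 tapetum genes was 692 to 737 in the FP4 libraries, against 36.4 to 41.4 in the FP3 libraries. Most of that sum was C6, and 5 of the 6 genes rose. Summed FPKM of 4 genes of male meiocytes was 8.84 to 10.0 in FP4 and 26.1 to 28.7 in FP3, and 3 of the 4 fell. MEL1 made up most of that sum. The 2 carpel and ovule genes, DL and MADS13, summed to 11 to 12.1 FPKM in FP4 and 3.61 to 4.40 FPKM in FP3, and both rose. The 4 genes of green tissue summed to 425 to 463 FPKM in FP4 and 82.1 to 87.4 FPKM in FP3, and all 4 rose. CAB2R made up most of that sum at both stages. Of 3 MADS-box genes of late pollen, MADS63 was at 0 in every FP4 library and the other 2 did not pass the filter on low counts. Their sum stayed at or below 0.087 FPKM in FP4 and between 0.225 and 0.402 FPKM in FP3, so that these 3 transcripts were low at both stages. MADS63 also had 0.581, 0.580 and 0.378 FPKM in SP3, so that its level cannot be read as an amount of pollen. Marker transcripts of several tissues thus differed between the labelled stages. Whether tissue makeup changed, and its part in the gene results that follow, was not tested.

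**Figure D2:**
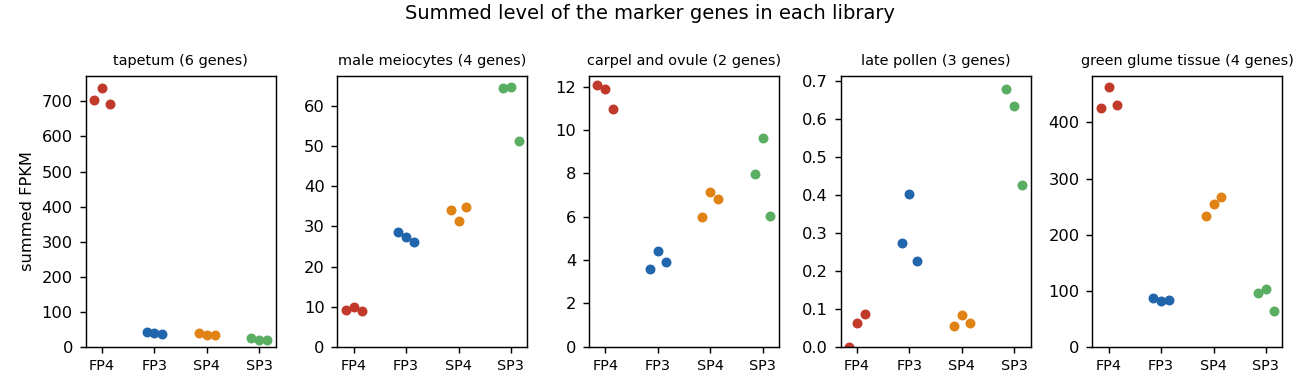
Summed FPKM (vertical axis, from 0) of the marker genes of each tissue in the 3 libraries (points) of FP4, FP3, SP4 and SP3. The tapetum sum of FP4, 692 to 737, lies above that of every other group, and the meiocyte sum of FP4, 8.84 to 10.0, lies below that of every other group. Singly, C6, CYP703A3 and PTC1 lie above every other group in FP4. UDT1 overlaps SP4, EAT1 overlaps SP3, and TDR is lower in FP4 (8.47 to 10.1) than in SP4 (22.3 to 24.9).

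Genes of the pollen wall and of anther lipids rose together. Of 16 members tested, 14 were higher (87.5%) and 0 were lower in FP4, beside 12.9% and 6.13% of all genes. The median log2 fold change was 2.79, against -0.02 over all genes. C6 (LOC_Os11g37280), a lipid transfer protein secreted by the tapetum, had 613, 648 and 609 FPKM in FP4, against 23.0, 22.6 and 21.5 FPKM in FP3. The groups were far apart and the replicates close, and the log2 fold change was 4.84 ± 0.05 (SE), the largest of the list (adjusted p = 2.44e-07 by edgeR's quasi-likelihood test). CYP704B2 (LOC_Os03g07250), a cytochrome P450 that hydroxylates fatty acids for sporopollenin and cutin, had 111, 107 and 97.1 FPKM in FP4 and 8.98, 8.32 and 4.97 FPKM in FP3. Replicate 3 was the lowest in both groups, yet the groups did not overlap, and the log2 fold change was 3.75 ± 0.11 (SE). CYP703A3 (LOC_Os08g03682), a second P450 of the same pathway, had 69.0, 68.9 and 62.2 FPKM in FP4 and 9.31, 8.58 and 8.06 FPKM in FP3. DPW (LOC_Os03g07140), a plastid reductase that makes fatty alcohols, had 77.2, 81.4 and 72.8 FPKM in FP4 and 8.31, 8.11 and 7.41 FPKM in FP3. Both rose in all FP4 libraries, with log2 fold changes of 2.84 ± 0.04 for CYP703A3 and 3.42 ± 0.04 for DPW.

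The enzymes that extend and condense the fatty acyl chains for sporopollenin followed. PKS1 (LOC_Os10g34360), a polyketide synthase, had 164, 166 and 148 FPKM in FP4 and 18.6, 16.5 and 13.9 FPKM in FP3. Its relative PKS2 (LOC_Os07g22850) was lower in level, with 21.4, 21.5 and 21.4 FPKM in FP4 and 4.58, 3.92 and 3.60 FPKM in FP3. The acyl-CoA synthetase ACOS12 (LOC_Os04g24530) had 76.0, 70.3 and 63.5 FPKM in FP4 and 15.3, 15.2 and 15.9 FPKM in FP3. None of these groups overlapped, and the log2 fold changes were 3.33 for PKS1, 2.46 for PKS2 and 2.21 for ACOS12. ABCG15 (LOC_Os06g40550), an ABC transporter that exports wall precursors, had 12, 12.9 and 11.9 FPKM in FP4 and 1.37, 1.13 and 0.744 FPKM in FP3. C4 (LOC_Os08g43290), a small secreted anther protein of the lipid transfer type, had 95.9, 105 and 93.6 FPKM in FP4 and 8.13, 8.34 and 9.33 FPKM in FP3. RAFTIN1 (LOC_Os08g38810), whose wheat relatives are carried from tapetum to pollen surface, had 20.6, 21.2 and 17.5 FPKM in FP4 and 1.33, 1.35 and 1.39 FPKM in FP3. Every FP4 library of these genes lay above every FP3 library, with log2 fold changes of 3.63, 3.55 and 3.90. The wax gene WDA1 (LOC_Os10g33250) and the acyltransferase GPAT3 (LOC_Os11g45400) moved less, with log2 fold changes of 2.12 for WDA1 and 1.26 for GPAT3, the smallest call of the list. The 2 members that were not called had log2 fold changes of 0.75 and -1.53.

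The transcription factors that direct the tapetum changed less than the enzymes. Of 8 tested, 4 rose (50%, beside 12.9% of all genes) and 0 fell, with a median log2 fold change of 0.54. TDR (LOC_Os02g02820), a bHLH factor required for timely tapetal death, had 8.85, 8.47 and 10.1 FPKM in FP4 and 3.27, 3.07 and 2.84 FPKM in FP3. EAT1 (LOC_Os04g51070), a bHLH factor that acts after TDR, had 11.2, 10.0 and 9.27 FPKM in FP4 and 4.22, 3.25 and 2.46 FPKM in FP3. The FP4 values lay above the FP3 values for both, with log2 fold changes of 1.61 ± 0.10 and 1.77 ± 0.14 (SE; adjusted p = 4.72e-05 and 0.000103 by edgeR's quasi-likelihood test). PTC1 (LOC_Os09g27620), a PHD-finger regulator of tapetal development, stayed under 1 FPKM, with 0.613, 0.828 and 0.478 FPKM in FP4 and 0.139, 0.197 and 0.244 FPKM in FP3. MYB80 (LOC_Os04g39470), a MYB factor of the late tapetum, had 3.48, 3.37 and 2.92 FPKM in FP4 and 1.54, 1.82 and 1.44 FPKM in FP3. Its log2 fold change of 1.06 was the smallest call of the list, and it was 0.96 when library totals replaced TMM scaling. The 2 earlier-acting factors named in the list were not called. TIP2 (LOC_Os01g18870) had 3.96, 4.49 and 3.68 FPKM in FP4 and 5.06, 4.63 and 3.97 FPKM in FP3, and TDF1 (LOC_Os03g18480) had 1.87, 2.03 and 2.07 FPKM in FP4 and 2.09, 2.04 and 1.90 FPKM in FP3. The values of both genes overlapped between the stages.

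Proteases that take part in the death of the tapetum were higher in FP4 for all 3 members tested, beside 12.9% of all genes. Their median log2 fold change was 2.17. AP25 (LOC_Os03g08790), an aspartic protease, had 16.8, 18.7 and 15.6 FPKM in FP4 and 6.21, 5.29 and 5.84 FPKM in FP3. CP1 (LOC_Os04g57490), a cysteine protease, was expressed at a far lower level, with 0.876, 0.961 and 1.09 FPKM in FP4 and 0.243, 0.169 and 0.258 FPKM in FP3. Both were without overlap, with log2 fold changes of 1.60 for AP25, the smallest of the list, and 2.17 for CP1.

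Cellulose synthases rose by group. The CESA proteins form rosettes in the plasma membrane, where CESA1, CESA3, CESA5 and CESA6 belong to the primary wall and CESA4 and CESA7 to the secondary wall. Of 9 tested, 7 rose (77.8%, beside 12.9% of all genes) and 0 fell, and the median log2 fold change was 1.49. CESA4 (LOC_Os01g54620) had 102, 90.3 and 87.7 FPKM in FP4, against 3.20, 2.92 and 3.15 FPKM in FP3. CESA7 (LOC_Os10g32980) had 33.5, 32.3 and 31.8 FPKM in FP4, against 1.05, 1.17 and 0.912 FPKM in FP3. These secondary wall genes were low in all FP3 libraries and differed most, with log2 fold changes of 4.93 ± 0.07 and 5.0 ± 0.09 (SE; adjusted p = 2.91e-07 and 4.17e-07 by edgeR's quasi-likelihood test). CESA1 (LOC_Os05g08370) had 177, 154 and 152 FPKM in FP4 and 67.3, 67.7 and 62.6 FPKM in FP3. CESA3 (LOC_Os07g24190) had 133, 123 and 120 FPKM in FP4 and 47.4, 47.3 and 43.8 FPKM in FP3. These primary wall genes were already abundant at P3, and their log2 fold changes were 1.32 and 1.49. CESA6 (LOC_Os07g14850) rose with 1.13, the smallest call, and CESA5 (LOC_Os03g62090) had a log2 fold change of 0.91 and was not called.

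**Figure D3:**
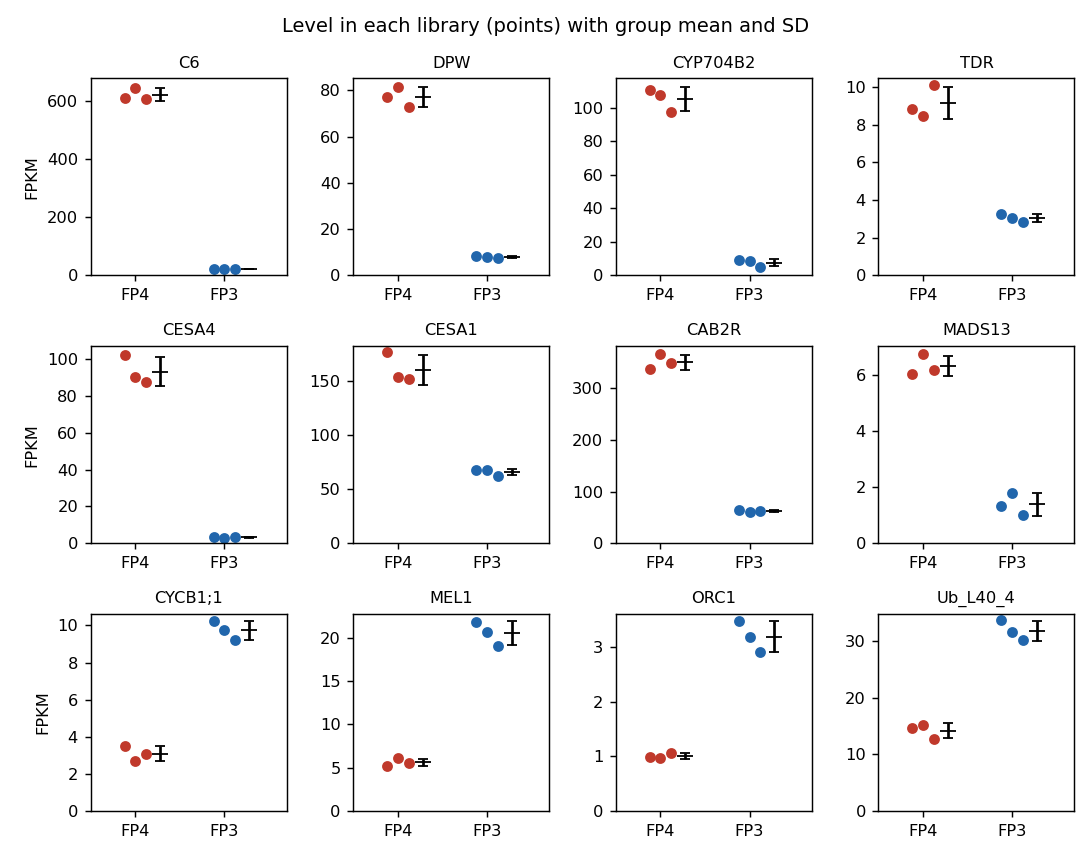
FPKM (vertical axes, from 0, with a scale for each gene) of 12 genes in the 3 FP4 and the 3 FP3 libraries (points), with the mean and SD of each group beside them (n = 3). The FP4 points lie above the FP3 points for C6, DPW, CYP704B2, TDR, CESA4, CESA1, CAB2R and MADS13 and below them for CYCB1;1, MEL1, ORC1 and Ub_L40_4.

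Nuclear genes of photosynthesis rose almost without exception. Of 26 tested, 25 were higher (96%, beside 12.9% of all genes) and 0 lower in FP4, with a median log2 fold change of 1.99. CAB2R (LOC_Os01g41710), a chlorophyll-binding protein of the main light-harvesting complex, had 337, 366 and 349 FPKM in FP4, against 64.3, 60.3 and 61.4 FPKM in FP3. PSBO (LOC_Os01g31690), a subunit of the oxygen-evolving complex of photosystem II, had 85.2, 84.5 and 81.0 FPKM in FP4, against 22.6, 21.9 and 22.0 FPKM in FP3. The groups of both genes were wide apart, with log2 fold changes of 2.55 ± 0.06 and 1.96 ± 0.04 (SE; adjusted p = 1.20e-06 and 6.43e-07 by edgeR's quasi-likelihood test). RCA (LOC_Os11g47970), the activase of Rubisco, had 11.9, 14.5 and 12.1 FPKM in FP4 and 3.14, 3.29 and 3.03 FPKM in FP3. The small subunits of Rubisco differed in size of change, with log2 fold changes of 3.69 for RBCS4 (LOC_Os12g19470), the largest of the list, 2.98 for RBCS3 (LOC_Os12g19381) and 1.29 for RBCS2 (LOC_Os12g17600). Such near-identical copies can share reads, so that values of single RBCS and CAB genes are uncertain. The antenna proteins LHCB2, LHCB3, LHCB4 and LHCB6 of photosystem II ranged from 1.82 for LHCB6 (LOC_Os04g38410) to 2.65 for LHCB4 (LOC_Os07g37240). The named core subunits of photosystem I ranged from 1.78 for PSAE (LOC_Os07g25430) to 2.45 for PSAN (LOC_Os12g08770). LHCA3 (LOC_Os02g10390) had 20.3, 21.1 and 30.2 FPKM in FP4 and 10.8, 10.1 and 10.4 FPKM in FP3. Replicate 3 of FP4 stood above the others there, and without it the log2 fold change of 1.26 became 0.99, under the fold threshold. PETC (LOC_Os07g37030), the Rieske protein of the cytochrome b6f complex, was the member that was not called, at 0.80.

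Of 10 genes of meiotic entry, chromosome axis and synapsis, 5 fell (50%, beside 6.13% of all genes) and 0 rose in FP4. Their median log2 fold change was -0.84. MEL1 (LOC_Os03g58600), an Argonaute of the germ line that binds phased small RNAs, had 5.21, 6.07 and 5.54 FPKM in FP4, against 21.8, 20.7 and 19.1 FPKM in FP3. It fell by 1.87 ± 0.07 on the log2 scale, the largest drop of the list (adjusted p = 4.74e-06 by edgeR's quasi-likelihood test), with the groups far apart. ZEP1 (LOC_Os04g37960), which forms the central part of the synaptonemal complex, had 1.26, 1.46 and 1.12 FPKM in FP4 and 2.73, 2.70 and 2.37 FPKM in FP3. CRC1 (LOC_Os04g40290), a factor of synapsis and of break formation, had 0.489, 0.624 and 0.509 FPKM in FP4 and 1.41, 1.35 and 1.21 FPKM in FP3. Both fell in all libraries, by 1.08 and 1.17 on the log2 scale, ZEP1 being the smallest call. SGO1 (LOC_Os02g55570), the guardian of centromere cohesion, had 1.27, 1.63 and 1.15 FPKM in FP4 and 1.77, 1.58 and 2.03 FPKM in FP3, and these values overlapped.

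Genes of meiotic recombination showed smaller differences, as 1 of 11 fell (9.09%, near the 6.13% of all genes) and the median was -0.29. The member called was COM1 (LOC_Os06g41050), which trims the ends of meiotic DNA breaks. It had 0.122, 0.117 and 0.110 FPKM in FP4 and 0.297, 0.355 and 0.275 FPKM in FP3 and fell by 1.30 ± 0.24 (SE), at a level near the lower limit of detection. SPO11-1 (LOC_Os03g54091), which cuts the DNA, had 3.44, 3.55 and 2.90 FPKM in FP4 and 4.71, 5.47 and 4.40 FPKM in FP3. Its groups did not overlap, but the log2 fold change of -0.45 was under the fold threshold. MSH4 (LOC_Os07g30240) and ZIP4 (LOC_Os01g66690), which belong to the main crossover pathway, had log2 fold changes of -0.26 and -0.29 and were not called. DMC1B (LOC_Os11g04954), the meiotic strand exchange protein, had 1.68, 1.62 and 1.35 FPKM in FP4 and 1.29, 1.78 and 2.11 FPKM in FP3. The groups overlapped, the fitted change from counts was 0.30, and reads of its near-identical copy may be shared with it.

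Calls among replication and cell division genes were all falls. Among 13 DNA replication genes, 2 fell (15.4%, beside 6.13% of all genes) and 0 rose. Of the 13, 12 had a log2 fold change below 0, and the median was -0.55. ORC1 (LOC_Os06g08790), the large subunit of the origin recognition complex, had 0.997, 0.966 and 1.07 FPKM in FP4 and 3.49, 3.19 and 2.91 FPKM in FP3. MCM3 (LOC_Os05g39850), a subunit of the replicative helicase, had 2.38, 2.21 and 2.45 FPKM in FP4 and 4.99, 5.32 and 5.69 FPKM in FP3. They fell by 1.66 ± 0.08 and 1.14 ± 0.11 on the log2 scale (SE; adjusted p = 1.71e-05 and 0.000294 by edgeR's quasi-likelihood test), each without overlap. PCNA (LOC_Os02g56130), the sliding clamp of the polymerase, was the most abundant member named, with 11, 9.90 and 9.98 FPKM in FP4 and 16.5, 15.5 and 14.5 FPKM in FP3, and its change of -0.55 was under the threshold. MCM4, MCM5 and MCM7 had log2 fold changes of -0.60, -0.40 and -0.17.

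Of 10 mitotic cyclins and kinases, 5 were called lower (50%, beside 6.13% of all genes) and 0 higher. Their median of -1.08 was the lowest of all lists. B-type cyclins, which drive entry into mitosis, made up 4 of the 5 that fell. CYCB1;1 (LOC_Os01g59120) had 3.49, 2.71 and 3.07 FPKM in FP4, against 10.2, 9.75 and 9.23 FPKM in FP3. CYCB2;1 (LOC_Os04g47580) had 2.22, 2.32 and 1.95 FPKM in FP4, against 6.46, 6.48 and 6.39 FPKM in FP3. CYCB2;2 (LOC_Os06g51110) had 2.54, 2.72 and 2.16 FPKM in FP4, against 7.03, 7.09 and 6.46 FPKM in FP3. Every FP4 library was below every FP3 library for these genes, and the falls were 1.61, 1.49 and 1.44 on the log2 scale. CYCB1;5 (LOC_Os05g41390) fell by 1.19, the smallest call of the list. Not every member went this way, as LOC_Os01g17402 had 0.973, 0.901 and 0.845 FPKM in FP4 and 0.596, 0.560 and 0.584 FPKM in FP3, higher in all FP4 libraries but under the fold threshold with a log2 fold change of 0.67.

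MADS-box factors set the identity of the floral organs. Of 20 tested, 7 rose and 1 fell (35% and 5%, beside 12.9% and 6.13% of all genes), and the median log2 fold change was 0.54. MADS13 (LOC_Os12g10540), an ovule identity gene, had 6.04, 6.75 and 6.20 FPKM in FP4 and 1.33, 1.81 and 1.02 FPKM in FP3. MADS21 (LOC_Os01g66290), of the same clade, had 1.26, 1.60 and 1.34 FPKM in FP4 and 0.300, 0.277 and 0.168 FPKM in FP3. The FP4 values of both were well above the FP3 values, with log2 fold changes of 2.15 ± 0.11 and 2.55 ± 0.23 (SE; adjusted p = 1.53e-05 and 0.000209 by edgeR's quasi-likelihood test). The C-class genes MADS3 (LOC_Os01g10504) and MADS58 (LOC_Os05g11414), which specify stamen and carpel, had log2 fold changes of 1.43 and 1.15. MADS16 (LOC_Os06g49840), the B-class gene of lodicule and stamen, had 120, 121 and 113 FPKM in FP4 and 48.6, 47.1 and 45.7 FPKM in FP3, a log2 fold change of 1.37. MADS2 (LOC_Os01g66030), another B-class gene, and DL (LOC_Os03g11600), a YABBY gene of carpel identity kept in this list, were called at 1.07 and 1.03, close to the threshold. MADS2 became 0.996 without FP4 replicate 2, DL became 0.97 without FP3 replicate 1, and both were under 1 with library totals in place of TMM. The E-class genes MADS1 (LOC_Os03g11614), MADS7 (LOC_Os08g41950) and MADS8 (LOC_Os09g32948) had log2 fold changes of 0.74, 0.62 and 0.73 and were not called. MADS63 (LOC_Os06g11970), the pollen gene, was at 0 in all 3 FP4 libraries and at 0.266, 0.402 and 0.159 FPKM in FP3.

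Among sugar supply genes, 2 of 9 tested rose (22.2%, against 12.9% of all genes) and 0 fell. CSA (LOC_Os01g16810), a MYB factor that directs sugar to the anther, had 2.76, 2.93 and 3.61 FPKM in FP4 and 1.02, 0.948 and 0.673 FPKM in FP3, a log2 fold change of 1.87 ± 0.21 (SE). MST8 (LOC_Os01g38670), a monosaccharide transporter controlled by CSA, had 0.636, 0.639 and 0.494 FPKM in FP4 and 0, 0.015 and 0 FPKM in FP3. Both genes were higher in all FP4 libraries. SUT1 (LOC_Os03g07480), a sucrose transporter, had 12.3, 10.8 and 11.3 FPKM in FP4 and 7.90, 9.32 and 9.45 FPKM in FP3, without overlap but with a log2 fold change of 0.38. Of 20 starch synthesis genes, 1 rose and 3 fell, with a median of -0.22. These 4 calls are close to the 19.0% of all genes called, with 3 falls of 20 beside 6.13% of all genes. The 3 that fell were AGPL4 (LOC_Os07g13980), a large subunit of ADP-glucose pyrophosphorylase, BEIIa (LOC_Os04g33460), a branching enzyme, and GBSSII (LOC_Os07g22930), the granule-bound synthase of vegetative tissue, by 1.35, 1.14 and 1.08 on the log2 scale. GBSSII had 9.03, 9.78 and 9.40 FPKM in FP4 and 22.8, 18.4 and 20.1 FPKM in FP3. GBSSI (LOC_Os06g04200), its counterpart of pollen and endosperm, had 0.597, 0.124 and 0.309 FPKM in FP4 and 0.0694, 0.0156 and 0.0395 FPKM in FP3. That call rested on very low levels and on the full set of libraries, as its adjusted p of 0.0278 by edgeR's quasi-likelihood test became 0.0889 without FP4 replicate 1, 0.0788 without FP4 replicate 3, 0.0644 without FP3 replicate 2 and 0.0787 without FP3 replicate 3. SSIIa (LOC_Os06g12450), a starch synthase of the endosperm, had 0.288, 0.342 and 0.254 FPKM in FP4 and 0.202, 0.250 and 0.311 FPKM in FP3 and was not called.

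Of 14 gibberellin genes tested, 4 rose (28.6%, beside 12.9% of all genes) and 0 fell, with a median log2 fold change of 0.35. Those that rose included 3 GA20 oxidases, which make the precursors of the active hormone. GA20ox1 (LOC_Os03g63970) had 13.8, 13.4 and 12.7 FPKM in FP4 and 6.08, 5.85 and 6.03 FPKM in FP3. GA20ox2 (LOC_Os01g66100) had 1.10, 0.861 and 0.813 FPKM in FP4 and 0.367, 0.266 and 0.259 FPKM in FP3. GA20ox3 (LOC_Os07g07420) had 2.10, 2.39 and 1.84 FPKM in FP4 and 1.11, 0.877 and 1.19 FPKM in FP3. The groups did not overlap in any of them and the log2 fold changes were 1.19, 1.62 and 1.03. GA20ox3 fell under the fold threshold without FP4 replicate 2 (0.96), without FP3 replicate 2 (0.91) and with library totals in place of TMM (0.93). The fourth gene called, LOC_Os01g08220, had 5.77, 6.48 and 4.92 FPKM in FP4 and 2.95, 2.82 and 2.59 FPKM in FP3, without overlap and with a log2 fold change of 1.07. GA3ox1 (LOC_Os05g08540), whose enzyme makes the active form, was near 0 and had 0.0665, 0.328 and 0.119 FPKM in FP4 and 0.0907, 0.146 and 0.020 FPKM in FP3, and these overlapped. Of 12 members of the Argonaute, Dicer and phasiRNA pathway other than MEL1, 1 rose (8.33%, beside 12.9% of all genes) and 0 fell, with a median of -0.21.

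The tms5 gene itself and the ubiquitin fusion genes Ub_L40, whose transcripts RNase ZS1 processes, were set apart as a list of 4. tms5 (LOC_Os02g12290) had 2.04, 2.57 and 1.94 FPKM in FP4, against 2.50, 2.90 and 2.50 FPKM in FP3. The groups overlapped, and the log2 fold change of -0.35 (adjusted p = 0.0497 by edgeR's quasi-likelihood test) was under the fold threshold. Ub_L40_4 (LOC_Os09g31031), the most abundant of the family, had 14.7, 15.2 and 12.7 FPKM in FP4, against 33.7, 31.6 and 30.3 FPKM in FP3. It fell by 1.13 ± 0.06 on the log2 scale (SE; adjusted p = 2.00e-05 by the same test), with no overlap. Ub_L40_1 (LOC_Os09g27930) had 1.51, 1.52 and 1.41 FPKM in FP4 and 1.60, 1.90 and 1.12 FPKM in FP3, and Ub_L40_2 (LOC_Os03g15370) had 1.90, 1.65 and 1.63 FPKM in FP4 and 1.43, 1.24 and 1.49 FPKM in FP3. Ub_L40_1 overlapped between the stages and Ub_L40_2 did not, and neither was called, with log2 fold changes of -0.01 and 0.37. Reads may be shared among these similar copies.

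Transcription factors that the study linked to motifs in open chromatin of these panicles are a choice that is not independent of them. Among 21 tested, 2 rose and 2 fell, 9.52% each, beside 12.9% and 6.13% of all genes. These counts are near the shares of all genes and are no result about the list. WR1 (LOC_Os02g10760), an AP2/ERF regulator of wax synthesis, had 18.7, 18.5 and 16.9 FPKM in FP4 and 3.12, 2.98 and 2.50 FPKM in FP3, a log2 fold change of 2.69 ± 0.08 (SE). ROC4 (LOC_Os04g48070), a homeodomain factor of the epidermis, had 2.68, 2.86 and 2.64 FPKM in FP4 and 1.05, 1.04 and 1.13 FPKM in FP3, a log2 fold change of 1.42. The FP4 values of both exceeded the FP3 values in all libraries. ICE1 (LOC_Os11g32100), a bHLH factor named for cold responses in Arabidopsis, had 1.57, 1.72 and 1.47 FPKM in FP4 and 4.33, 3.77 and 3.90 FPKM in FP3. HOX14 (LOC_Os07g39320), a homeodomain leucine zipper factor, had 8.48, 9.18 and 8.10 FPKM in FP4 and 21.7, 20.8 and 17.7 FPKM in FP3. They fell by 1.30 and 1.17 on the log2 scale without overlap. GATA10 (LOC_Os01g74540) had 1.74, 2.13 and 1.72 FPKM in FP4 and 2.59, 2.19 and 1.99 FPKM in FP3, which overlapped, and its log2 fold change of -0.23 was not called.

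Over the 16 lists, 204 of 210 distinct loci were tested, of which 70 rose, 20 fell and 114 were not called. Over all genes tested, 12.9% were higher and 6.13% lower. The lists with the highest medians were pollen wall and anther lipids (2.79), proteases (2.17), photosynthesis (1.99) and cellulose synthases (1.49). No member of these 4 lists was called lower. The lists with the lowest medians were mitotic cyclins and kinases (-1.08), meiotic entry (-0.84) and DNA replication (-0.55). No member of these 3 lists was called higher.

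**Figure D4:**
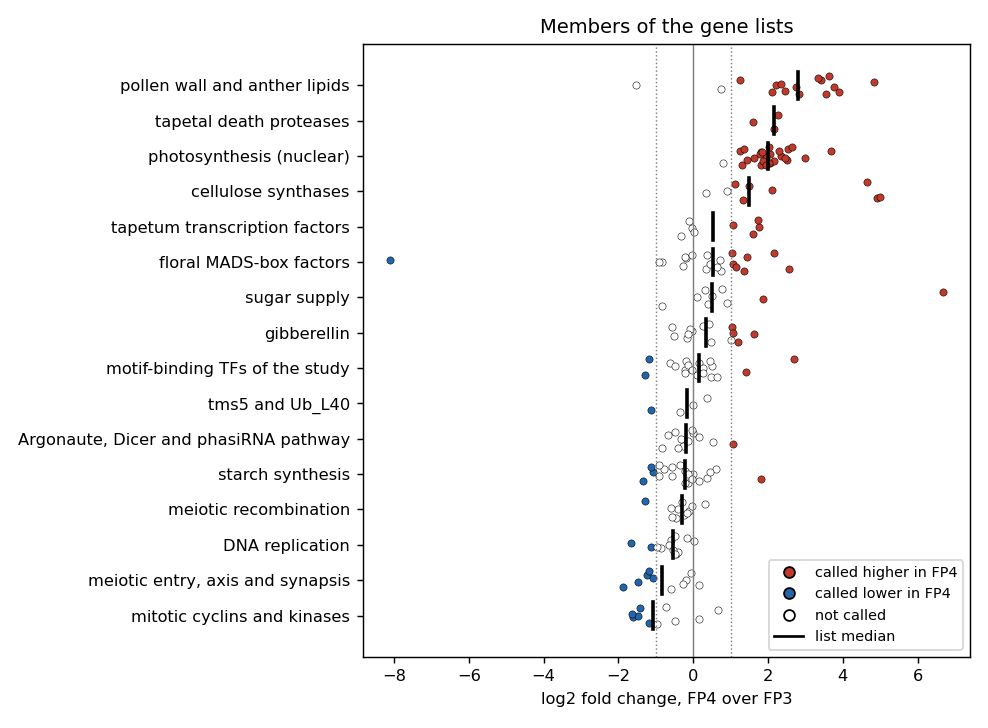
Log2 fold change (FP4 over FP3, horizontal axis) of each tested member of the 16 gene lists (rows), ordered by list median (black bars), with members called higher in red, called lower in blue and others open, a grey line at the median of all genes and dotted lines at 1 and -1. Red points fill the rows of pollen wall, proteases, photosynthesis and cellulose synthases, and blue points stand mainly in the rows of cyclins, meiotic entry and DNA replication, with MADS63 at the far left because it is at 0 in FP4.

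Some of the most abundant genes changed too, and are given by locus ID where no name is paired with them. LOC_Os11g06720 had 701, 725 and 652 FPKM in FP4 and 211, 200 and 188 FPKM in FP3, and LOC_Os05g04510 had 849, 788 and 751 FPKM in FP4 and 300, 288 and 278 FPKM in FP3. Their log2 fold changes were 1.84 and 1.50, and those of LOC_Os03g01320 and LOC_Os02g41630 were 1.43 and 1.29. On the other side, LOC_Os11g10590 had 26.7, 35.5 and 30.2 FPKM in FP4, against 371, 365 and 370 FPKM in FP3. It fell by 3.54 on the log2 scale, the largest fall among these abundant genes, followed by LOC_Os04g18090 (by 1.63), LOC_Os03g17690 (by 1.45), LOC_Os01g15270 (by 1.38) and LOC_Os03g14050 (by 1.26). LOC_Os01g15270 was the most abundant of them, with 764, 824 and 764 FPKM in FP4 and 2286, 2021 and 2016 FPKM in FP3. LOC_Os03g51380, which passed this rule and that for the largest changes by its normalised counts, had 18738, 25483 and 4.24 FPKM in FP4 and 4.70, 3.95 and 4.07 FPKM in FP3. Replicate 3 of FP4 thus lay among the FP3 values. The gene also reached 18306 FPKM in SP4 replicate 1 and 16101 FPKM in SP3 replicate 1 and stayed under 4 FPKM in the other sterile libraries. Its call (adjusted p = 0.013 by edgeR's quasi-likelihood test) was lost with the replicate number as a block, in the model of all 12 libraries, with limma, and without any 1 of the FP3 replicates.

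Genes with 0 counts in every library of 1 stage were rarer. Counts were 0 in all FP3 libraries for 54 of the genes that rose and 0 in all FP4 libraries for 59 of those that fell. Rice_newGene_4552, a transcript outside the reference annotation, had 6.37, 6.88 and 15.1 FPKM in FP4 and was at 0 in FP3, which makes it at least 1842-fold higher in FP4 against a floor of 3 counts over the group. By the same measure LOC_Os07g42740 was at least 266-fold, LOC_Os06g44040 at least 227-fold and LOC_Os02g04210 at least 159-fold higher. LOC_Os03g17110 had 2.08, 1.97 and 0.776 FPKM in FP3 and was at 0 in FP4, at least 199.7-fold lower. LOC_Os06g05440 was at least 142-fold lower, and the newly assembled Rice_newGene_38300, Rice_newGene_18793 and Rice_newGene_15459 were at least 156-fold, 143-fold and 135-fold lower. LOC_Os02g04210, LOC_Os06g05440 and LOC_Os03g17110 were at 0 in all SP4 and SP3 libraries. Rice_newGene_4552 had 0, 4.68 and 0 FPKM in SP4 and 0.546, 0 and 0 FPKM in SP3. LOC_Os07g42740 had 0, 0.919 and 0 FPKM in SP4 and 0, 1.10 and 0.239 FPKM in SP3. Both were thus uneven among the sterile replicates, and their difference of stage changes between the types was not called. Among all newly assembled transcripts, 76 of 1057 tested were higher (7.19%) and 121 lower (11.4%) in FP4, while 13.1% and 5.89% of the other genes were.

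The same step was measured in WXS(S), in libraries that FP4 and FP3 do not share. Of 23601 genes tested, 3022 were higher (12.8%) and 1617 lower (6.85%) in SP4 than in SP3, 19.7% in all. Among 22691 genes tested in both types were 2356 of the 3204 genes higher in FP4 and 1397 of the 1527 lower. The rest did not pass the filter on low counts in the sterile libraries and are outside the shares given next. In both types 1389 genes rose, which is 59.0% of the 2356 and 47.2% of the 2942 higher in SP4 that were tested in both. The genes that fell in both numbered 579, which is 41.4% of the 1397 and 48.9% of the 1184 lower in SP4 that were tested in both. Opposite calls were made for 35 genes that rose in WXS(F) and fell in WXS(S) and for 41 genes the other way round. The difference of the stage changes was tested directly in a model of all 12 libraries. The change in WXS(F) exceeded that in WXS(S) for 860 of 26392 genes (3.26%) and was below it for 1746 (6.62%), 9.87% in all. A larger rise in WXS(F) was called for 491 of the genes higher in FP4 (15.3%), and a deeper fall for 381 of those lower in FP4 (25.0%). The difference was called the other way for 263 of the genes higher in FP4 and for 11 of those lower. Both tests use the FP4 and FP3 libraries, so that choosing genes by the fertile step favours a larger step in WXS(F) in these counts.

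Within the lists the difference ran in both directions. For 16 pollen wall genes it was called above in WXS(F) for 7 and below for 6, beside 3.26% and 6.62% of all genes. C6 belonged to the first kind, with 2.16, 2.37 and 2.27 FPKM in SP4 and 0.378, 0.589 and 1.28 FPKM in SP3, and its stage change in WXS(F) exceeded that in WXS(S) by 3.21 ± 0.47 (SE) on the log2 scale. DPW had 0.265, 0.234 and 0.103 FPKM in SP4 and 0.0629, 0.186 and 0.362 FPKM in SP3, with a difference of 3.71 ± 0.62. Both genes were thus far lower in the sterile panicles at both stages, and CYP704B2 (3.05) and CYP703A3 (2.55) showed the same direction. PKS2 belonged to the second kind, with 62.2, 53.7 and 63.4 FPKM in SP4 and 0.602, 0.526 and 0.358 FPKM in SP3. ACOS12 had 124, 124 and 145 FPKM in SP4 and 2.22, 2.98 and 1.69 FPKM in SP3. C4 had 101, 106 and 116 FPKM in SP4 and 1.51, 2.03 and 1.32 FPKM in SP3. FP4 lay below SP4 for PKS2 and ACOS12 and overlapped it for C4, whereas FP3 lay above SP3 for all 3 genes. The differences were -4.48 ± 0.16 for PKS2, -3.68 ± 0.16 for ACOS12 and -2.55 ± 0.15 for C4. The tapetum factors split likewise, EAT1 with 2.14 ± 0.41 and MYB80 with -4.16 ± 0.31, MYB80 having 8.61, 8.31 and 9.11 FPKM in SP4 and 0.342, 0.233 and 0.111 FPKM in SP3.

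The counts that follow stand beside 3.26% of all genes with a difference called above and 6.62% called below. Photosynthesis genes exceeded the sterile step in 12 of 26 members and were below it in 0. MADS-box genes did so in 6 and 0 of 20, including MADS13 with a difference of 2.18 ± 0.22. Of the cellulose synthases 2 of 9 exceeded it, and CESA4, with 8.51, 7.06 and 7.98 FPKM in SP4 and 1.44, 1.57 and 1.58 FPKM in SP3, did so by 2.64 ± 0.13. Lower stage changes in WXS(F) were called for 4 of 13 replication genes and for 0 of 10 mitotic cyclins and kinases. COM1 had 1.69, 1.99 and 2.11 FPKM in SP4 and 0.665, 0.677 and 0.792 FPKM in SP3, and differed by -2.75 ± 0.30. All 3 Ub_L40 genes had lower stage changes in WXS(F), by -4.86 ± 0.86 for Ub_L40_1, -1.70 ± 0.39 for Ub_L40_2 and -1.33 ± 0.16 for Ub_L40_4. Ub_L40_4 had 210, 199 and 221 FPKM in SP4 and 239, 171 and 156 FPKM in SP3, so that every sterile library lay above every fertile library at either stage. SSIIa (-3.88) and the ERF factor ERF83 (-2.18) were below as well, while CP1 (3.17) and GA3ox1 (2.69) were above with adjusted p of 0.0426 and 0.0432 by edgeR's quasi-likelihood test and lost their calls when FP4 replicate 2 or other single libraries were left out. The adjusted p of the other differences given by value was at most 0.0118 by the same test.

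**Figure D5:**
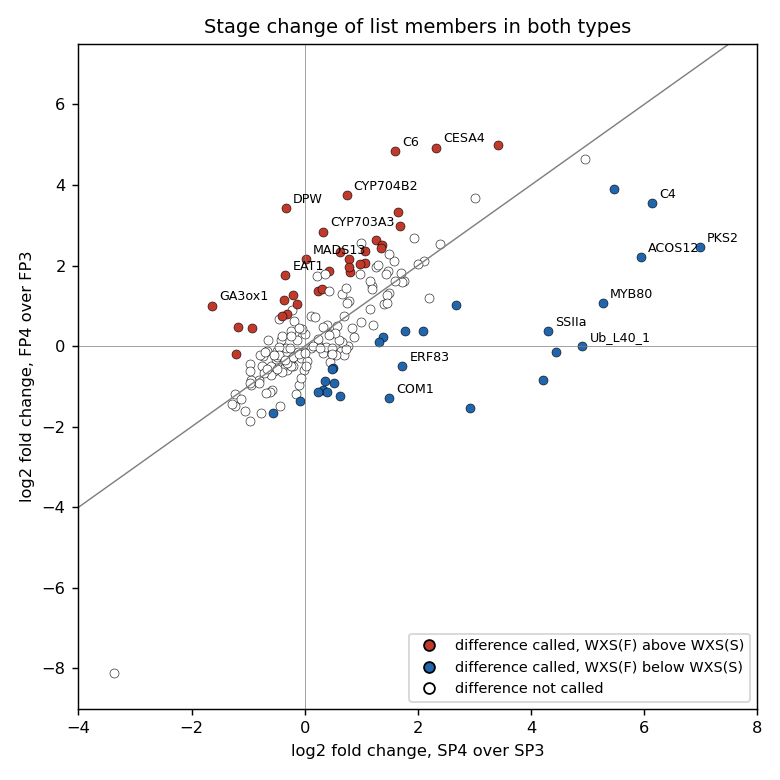
Log2 fold change of FP4 over FP3 (vertical axis) against that of SP4 over SP3 (horizontal axis) for the list members tested in both types, with the line of equal change, and with members whose difference was called above in WXS(F) in red, called below in blue and others open; the axes cover different ranges. C6, DPW, CYP704B2 and CESA4 lie far above the line, and PKS2, ACOS12, MYB80 and C4 lie far below it.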

How the data were processed

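Ribosomal RNA-depleted, strand-specific libraries of whole young panicles were sequenced by the authors, aligned with HISAT2 to the MSU7 rice genome and assembled with StringTie. The deposited tables hold whole-number counts per gene, not normalised, and FPKM values computed by the authors, for 47919 genes in 12 RNA-seq libraries. New transcripts were assembled from the same reads, and the rule by which reads of similar genes were counted is not given in the sources used here.

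Counts of the 3 FP4 and 3 FP3 libraries (41977738 to 50706690 per library) were fitted alone with edgeR 4.0.16 in R 4.3.3 (filterByExpr, TMM, quasi-likelihood test). A call needed a log2 fold change beyond 1 in either direction and a p below 0.05 after Benjamini-Hochberg adjustment over all genes tested. SP4 against SP3 was fitted likewise, and (FP4 - FP3) - (SP4 - SP3) on all 12 libraries. An exact permutation test of 3 against 3 cannot go below 0.1 and was not used. Where the labels give no separate plants, p-values measure the spread between these libraries. On simulated counts with 200 genes changed 4-fold among 24477, the FP4 against FP3 fit called 180 of them, 0 in the wrong direction, and 13 others. With 200 such genes among 25595 in all 12 libraries, the fit of the difference called 148, 0 in the wrong direction, and 11 others. The changed genes averaged 1 CPM or more, rose as often as they fell, and all others had no difference. In the data 19.0% of genes were called in the fertile step, many of them low. The rate of false calls in the data therefore cannot be read from these counts. DESeq2 1.42.0 and limma 3.58.1 served as alternatives.

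The 16 gene lists and the members were chosen with earlier results of these data known. Names are printed for 122 loci that the sources annotate, and the other 88 are only counted. In each list at least the largest and smallest called changes are given where named. Also given are the 5 largest changes in each direction among called genes that averaged 1 CPM or more and whose normalised counts did not overlap between the groups, and the 5 most abundant called genes in each direction. Single differences between the types are given for genes over 4-fold apart with counts in every group and for Ub_L40, a limit set after the values were seen. Chromatin data, sequences and coordinates were not used here.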

Additional observations from a re-analysis of the deposited data

Results flagged for a closer look

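The stage change differed between WXS(F) and WXS(S), by the test of the difference itself, for the results that follow. It was higher in WXS(F) for 860 genes and lower for 1746. Among the pollen wall genes, the change in WXS(F) minus that in WXS(S) was 3.21 for C6, 3.71 for DPW, 3.05 for CYP704B2 and 2.55 for CYP703A3 on the log2 scale. It was -4.48 for PKS2, -3.68 for ACOS12 and -2.55 for C4. Among regulators it was 2.14 for EAT1, -4.16 for MYB80, 2.18 for MADS13 and -2.18 for ERF83. For the cysteine protease CP1 it was 3.17, for the secondary wall gene CESA4 it was 2.64, and for the gibberellin gene GA3ox1 it was 2.69. It was -2.75 for the meiotic gene COM1 and -3.88 for the starch synthase SSIIa. The Ub_L40 genes had -4.86 (Ub_L40_1), -1.70 (Ub_L40_2) and -1.33 (Ub_L40_4). Of these 19 genes, 17 kept their call under every alternative that tested them, and CP1 and GA3ox1 lost theirs under at least 1.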

How the results depend on the processing

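With limma on log2(FPKM + 1), which shrinks the change of low genes, 1356 genes were higher and 571 lower in FP4, and without its filter 1337 and 556. List members lower in FP4 then numbered 10 under both settings, and genes whose change in WXS(F) was below that in WXS(S) numbered 737. Counted over genes with a mean of at least 1 FPKM, a setting chosen after seeing the data, 1825 were higher and 843 lower. Leaving out 1 replicate gave 2979 to 3207 genes higher and 1437 to 1550 lower. For the difference between the types, it gave 603 to 1217 genes above in WXS(F) and 1457 to 2260 below. Both counts were largest without SP3 replicate 3. Deviations of same-numbered FP4 and FP3 libraries from their group means correlated at -0.00393, 0.0245 and -0.00621. With 3 libraries per group this cannot tell whether samples were collected in pairs, which the labels do not give. With the replicate block 2919 genes were higher and 1403 lower. Library totals in place of TMM moved the median log2 fold change of all genes by -0.10, giving 2906 higher and 1840 lower, and testing without the filter moved it by 0.24. With DESeq2 4707 genes were called for FP4 against FP3, and the difference between the types was called above in WXS(F) for 1218 and below for 1992. Of 94 named genes called, 88 kept their call under every leave-one-out fit and 70 under every alternative that tested them. LOC_Os03g51380 lost its call with the replicate block (adjusted p = 0.141), in the model of 12 libraries (0.0751) and without FP3 replicate 1 (0.0502), 2 (0.0516) or 3 (0.0505), by edgeR's quasi-likelihood test. The sign changed only for log2 fold changes near 0 of genes that were not called and, for the difference between the types, for new transcripts at 0 in FP4. TDF1 became -0.087 without TMM, -0.0092 without the filter and -0.0097 or -0.014 with limma at a pseudocount of 1 or 0.1, and lay between -0.063 and 0.069 in the leave-one-out fits. Ub_L40_1 became 0.013 with at least 10 counts in every library, 0.022 with the replicate block and 0.0033 without LOC_Os03g51380, and lay between -0.18 and 0.17 in the leave-one-out fits. DMC1B became -0.089 or -0.13 with limma at a pseudocount of 1 or 0.1. The leave-one-out fits ranged from -0.12 to 0.44 for OsJ_22733, from -0.27 to 0.26 for MADS50 and from -0.014 to 0.23 for LBD. The difference between the types for Rice_newGene_15459 and Rice_newGene_18793 became 0.38 and 0.56 with limma at a pseudocount of 1. The cause of these shifts was not tested.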
